A study of Mus musculus with 17 samples.

Results

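The genes described here are 10 genes known from the surface and signalling of resting follicular B cells of the mouse: Fcer2a, Cd55, Cd38, Btla, Fcrl1, Cd37, Hvcn1, Bank1, Cd69 and Cd24a. They were taken by gene symbol from a table of 55536 genes, and all 10 were among the 15352 genes with enough counts to be tested. The table holds RNA sequencing of spleen B cells isolated by FACS, 17 libraries in 6 groups. WT mice gave 3 libraries for each stage, which were naive, activated and germinal centre (GC) cells. Mice with a p52 knock-in (p52ki) gave 3 libraries each of naive and activated cells and 2 of GC cells. The series set p52 knock-in beside WT cells before and within the germinal centre. The labels give no age, sex, immunisation, sorting gate or description of the knock-in allele, and they do not say that the libraries came from separate mice. The p-values therefore measure the spread between these libraries, which may be technical.

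Resting follicular B cells recirculate between blood and follicle and carry receptors that set the threshold of the B cell receptor or hold the cell in a niche. On entering the germinal centre, where B cells divide and mutate their antibody genes, mouse cells are known to lose CD38 and CD55 from the surface, and low CD38 is often used to sort them. p52 is the product of the Nfkb2 gene that pairs with RelB in the noncanonical NF-kB pathway.

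Library totals ran from 4067281 to 10036347 counts, and the 10 genes together took 0.292% to 0.955% of them. The lowest count of any of the 10 genes in any library was 187. Reads without molecular identifiers are not independent molecules, so counting error alone was not set against the spread between libraries. WT GC replicate 3, p52ki GC replicate 2 and p52ki GC replicate 5 had counts for 11232, 11390 and 13044 genes, against 16745 to 19672 in the other 14 libraries. Both p52ki GC libraries are therefore sparse and only 1 of the 3 WT GC libraries is, so the difference between genotypes in GC cells is also given against that library alone. All 7 B cell markers had counts in every library, and the 10 GC markers summed to 2534 to 4069 CPM (counts scaled to library size) in WT GC, 1482 to 2321 in p52ki GC and 43.5 to 344 in the other libraries. WT libraries carry the numbers 1 to 12 and p52ki libraries the numbers 19 to 30, so a batch that follows this order cannot be told apart from genotype. In bulk samples such as these, fewer cells with a transcript and less transcript per cell cannot be told apart.

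The receptors come first. Fcer2a encodes CD23, the low-affinity IgE receptor of follicular B cells (ENSMUSG00000005540, GRCm38 chr8:3681737-3694175, minus strand). In WT its level was 1307, 1090.1 and 1272 CPM in the naive replicates 1, 3 and 4, 540.1, 304 and 436 CPM in the activated ones, and 297, 414 and 389 CPM in the GC ones. In p52ki it was 1363, 1329.5 and 1136 CPM in the naive replicates 2, 3 and 5, 429.9, 469.7 and 433 CPM in the activated ones, and 634 and 771 CPM in the GC replicates 2 and 5. Naive libraries were the highest in each genotype and overlapped no other stage, and both p52ki GC libraries lay above every activated library and every WT GC library. Btla encodes an inhibitory receptor that binds HVEM (ENSMUSG00000052013, chr16:45224315-45257670, plus strand). Its WT levels were 444, 564 and 524 CPM in naive, 281, 381 and 337 CPM in activated, and 189, 145 and 219.6 CPM in GC cells. Its p52ki levels were 532, 475 and 490.0 CPM in naive, 399.8, 328 and 319 CPM in activated, and 326 and 341 CPM in GC cells. The 3 WT stages did not overlap, whereas p52ki GC libraries lay within the range of p52ki activated ones. Fcrl1 encodes an Fc receptor-like protein of the B cell surface (ENSMUSG00000059994, chr3:87376387-87402934, plus strand). It stood at 374, 325 and 349.7 CPM in WT naive, 295, 229.8 and 285 CPM in WT activated, and 150.3, 170.4 and 157 CPM in WT GC cells. In p52ki it stood at 341, 370.1 and 317 CPM in naive, 272, 281 and 293 CPM in activated, and 259 and 314 CPM in GC cells. As for Btla, the WT stages did not overlap and the p52ki GC libraries overlapped the activated ones.

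Among the surface enzymes and regulators, Cd55 encodes decay-accelerating factor, which limits complement on the cell's own membrane (ENSMUSG00000026399, chr1:130439027-130462744, minus strand). Its WT levels were 1309, 1214 and 1452 CPM in naive, 741, 577 and 692 CPM in activated, and 58.6, 179.6 and 86.3 CPM in GC cells. Its p52ki levels were 1234, 1151 and 1169 CPM in naive, 681, 747 and 556 CPM in activated, and 171 and 226 CPM in GC cells. The stages did not overlap in either genotype, and among WT GC libraries the sparse replicate 3 was the highest. Cd38 encodes an enzyme that breaks down NAD (ENSMUSG00000029084, chr5:43868553-43912375, plus strand). Its levels were 919.8, 784 and 883 CPM in WT naive, 1096, 1035 and 1059 CPM in WT activated, and 83.1, 61.5 and 99.0 CPM in WT GC cells. In p52ki it was at 757, 814 and 804 CPM in naive, 924, 1139 and 576 CPM in activated, and 45.3 and 271 CPM in GC cells. Every GC library was below every naive and activated one, but the p52ki GC libraries stood apart from each other, with replicate 2 below and replicate 5 above all WT GC libraries. Cd37 encodes a tetraspanin of mature B cells (ENSMUSG00000030798, chr7:45233632-45239115, minus strand). In WT it was at 1198, 1160.4 and 1038 CPM in naive, 1406, 1039.5 and 1099 CPM in activated, and 596, 582 and 632 CPM in GC cells. In p52ki it was at 1122, 1236 and 1037 CPM in naive, 1183, 1393 and 1255 CPM in activated, and 1191 and 1289 CPM in GC cells. The WT GC libraries formed a tight low group, and the p52ki GC libraries lay within the range of p52ki activated cells.

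Cd69 encodes an early activation antigen that opposes the exit receptor S1PR1 (ENSMUSG00000030156, chr6:129267325-129275436, minus strand). It stood at 449.8, 531 and 817 CPM in WT naive, 295, 377 and 578 CPM in WT activated, and 101.3, 158 and 241 CPM in WT GC cells. In p52ki it stood at 781, 913 and 454 CPM in naive, 596, 788 and 321 CPM in activated, and 263 and 187 CPM in GC cells. Cd69 varied widely within groups, with a coefficient of variation of 32.2% to 41.3% in the 4 groups of naive or activated cells and 42.1% in WT GC cells. Cd24a encodes heat-stable antigen, a small glycoprotein that is high on immature B cells (ENSMUSG00000047139, chr10:43578284-43584265, plus strand). Its levels were 559.8, 501 and 592 CPM in WT naive, 1171, 906 and 1099 CPM in WT activated, and 906, 700.1 and 1158 CPM in WT GC cells. In p52ki it was at 673, 794 and 507 CPM in naive, 1354, 1413 and 1220.1 CPM in activated, and 655 and 1086 CPM in GC cells. Cd24a was lowest in naive cells in each genotype's means, so its level ran against a label of naive cell genes.

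The remaining genes act inside or across the membrane rather than as surface receptors. Bank1 encodes a cytoplasmic adaptor of B cell receptor signalling (ENSMUSG00000037922, chr3:136053363-136326066, minus strand). Its WT levels were 1295, 1468 and 1488 CPM in naive, 841, 1341 and 1025 CPM in activated, and 440.1, 202 and 392 CPM in GC cells. Its p52ki levels were 1541, 1286 and 1499.6 CPM in naive, 1196, 946 and 1077 CPM in activated, and 493 and 512 CPM in GC cells. GC libraries were below all others, and both p52ki GC libraries were above all WT GC ones. Hvcn1 encodes a voltage-gated proton channel that serves NADPH oxidase activity in B cells (ENSMUSG00000064267, chr5:122206804-122242297, plus strand). Its levels were 762, 757 and 734 CPM in WT naive, 335, 466 and 323 CPM in WT activated, and 476, 322 and 365 CPM in WT GC cells. In p52ki it was at 963, 707 and 911 CPM in naive, 557, 452 and 433 CPM in activated, and 314 and 404 CPM in GC cells. Naive libraries were the highest, and activated and GC libraries overlapped in WT. Hvcn1 shares 1574 exon bases with Tctn1 on the opposite strand, and the strand setting of the counting is not given in the sources used here, so reads of these genes cannot be told apart. Tctn1 showed nearly the same differences, with a log2 value of -0.99 (adjusted p = 0.00727) between WT GC and naive cells. Cd55 shares 102 exon bases with the antisense gene Gm16083 and has a near copy, Cd55b, with 0 to 64 counts per library, and Cd37 shares 13 bases with Tead2. By edgeR's test Gm16083 was also lower in WT GC than in WT naive cells (log2 -3.93, adjusted p = 0.000193). Tead2, with 145 to 450 counts per library, was higher in p52ki than in WT GC cells (log2 1.17, adjusted p = 0.0206). The part of shared reads was not tested.

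**Figure D1:**
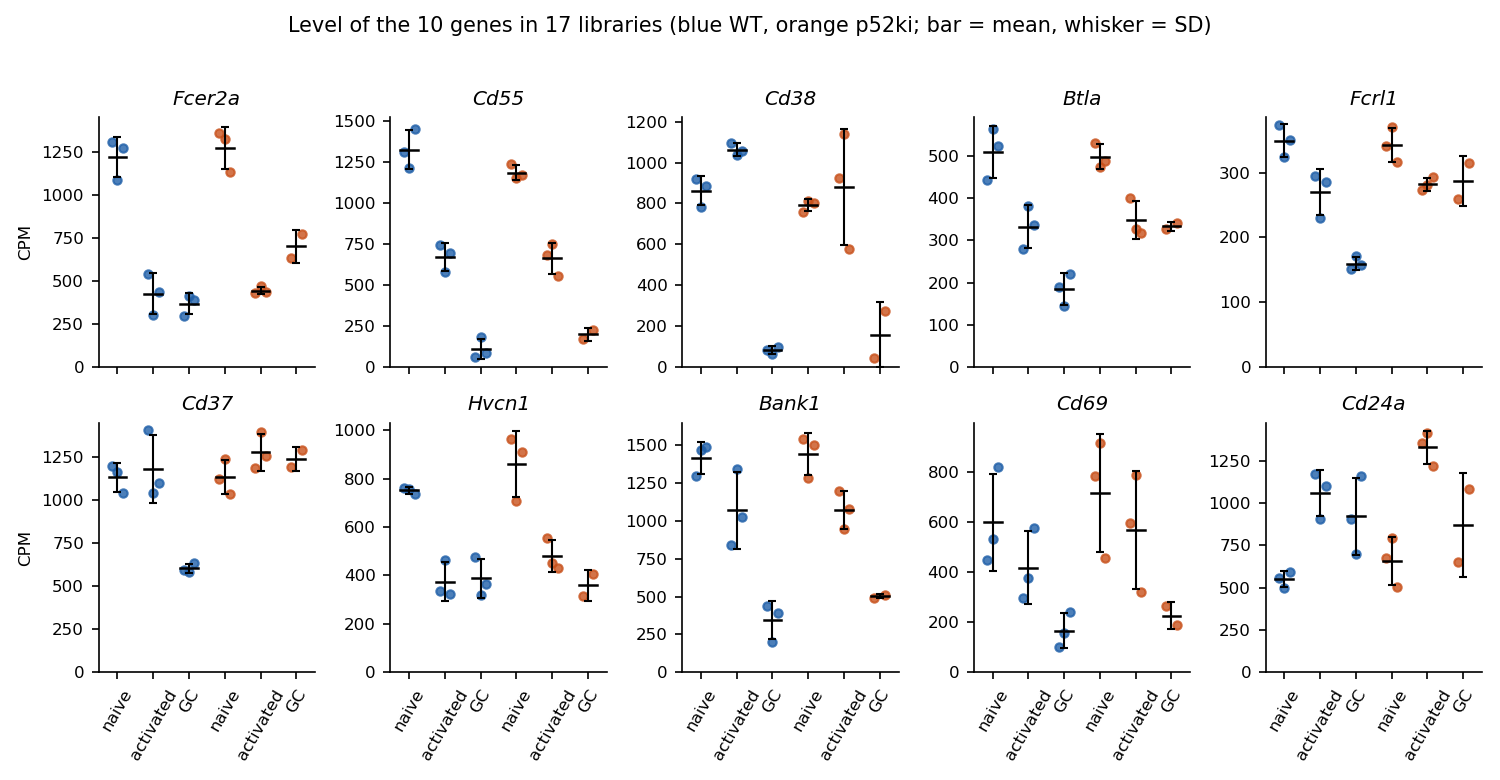
CPM of each of the 10 genes (linear axes from 0) by stage, WT in blue and p52ki in orange; each point is a library, the bar the group mean and the whisker the SD. Cd37 is near 600 CPM in the WT GC libraries and at 1191 and 1289 CPM in the p52ki GC libraries, while Cd55 and Cd38 are low in GC cells of both genotypes.

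Levels were compared between genes as CPM per kilobase of exon (RPKM). In WT naive cells the order was Fcer2a at 396 ± 37.7 RPKM (SD, n = 3), Cd37 at 321 ± 23.8, Cd55 at 273 ± 24.7, Cd38 at 222 ± 18.1, Cd24a at 214 ± 18.0, Hvcn1 at 211 ± 4.11, Bank1 at 189 ± 14.1, Btla at 150.3 ± 18.0, Fcrl1 at 98.2 ± 6.95 and Cd69 at 92.1 ± 29.7. The ranges of Cd37 and Cd55, of Cd38, Cd24a and Hvcn1, and of Fcrl1 and Cd69 overlapped with their neighbours in this order. In WT GC cells Cd24a led at 357 ± 88.8 RPKM, followed by Cd37 at 171 ± 7.39 and Fcer2a at 119 ± 20.0, and Cd38 had the lowest mean at 20.9 ± 4.84. The ranges of Fcer2a and Hvcn1, of Btla, Bank1 and Fcrl1, and of Cd69, Cd55 and Cd38 overlapped with their neighbours there, so neither the third nor the last place was separate. In p52ki GC cells (n = 2) Cd37 at 352 ± 19.7 RPKM and Cd24a at 337 ± 118 overlapped at the top, and Fcer2a followed at 227 ± 31.2.

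In the fit over all groups, activation changed Fcer2a and, by the threshold used, none of the other 9 genes. The shared spread includes the sparse GC libraries. By edgeR's test 614 of 15352 genes in p52ki (860 in WT) had an unadjusted p under 0.05. That 614 is fewer than the threshold gives without any difference, so the test may miss differences. With only the groups compared in the fit, 4 of the 10 were called in each genotype. These were Fcer2a, Cd55 and Hvcn1, lower, and Cd24a, higher, beside 352 (WT) and 473 (p52ki) of all genes. In WT the Fcer2a mean went from 1223 ± 116 CPM in naive to 427 ± 118 CPM in activated cells (SD, n = 3 each), a 2.87-fold fall with a log2 difference of -1.52 ± 0.208 (SE, adjusted p = 0.0034, edgeR's quasi-likelihood test). It was thus 1 of 10 genes called, where 0.319% of all tested genes were called, 0.254% higher and 0.0651% lower. On the p52ki side Fcer2a was also the only member called, with a log2 difference of -1.52 ± 0.208 (adjusted p = 0.00785), where 0.117% of all genes were called, 0.0847% higher and 0.0326% lower. No difference between the p52ki and the WT change of Fcer2a was detected, at -0.00369 ± 0.288 on the log2 scale. The WT call for Fcer2a was lost without WT naive replicate 1 (-1.42, adjusted p = 0.0543). The p52ki call was lost without naive replicate 2, activated replicate 2, naive replicate 3 or activated replicate 3 (adjusted p of 0.0908, 0.127, 0.0754 and 0.0844), and with immunoglobulin genes removed (adjusted p = 0.0501).

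Several genes that did not pass the test nevertheless separated naive from activated libraries. In WT, 5 of 10 genes were lower in every activated than in every naive library (Fcer2a, Cd55, Btla, Fcrl1 and Hvcn1) and 2 were higher (Cd38 and Cd24a), against 9.35% and 9.46% of all tested genes. In p52ki, 6 of 10 were lower (the same 5 and Bank1) and Cd24a was higher, against 8.12% and 10.8%. Hvcn1 had a log2 difference of -1.004 ± 0.207 in WT (adjusted p = 0.0545) and -0.84 ± 0.206 in p52ki (adjusted p = 0.243). Cd55 had -0.98 ± 0.298 in WT (adjusted p = 0.294) and -0.84 ± 0.297 in p52ki (adjusted p = 0.733). Cd24a had 0.94 ± 0.232 in WT (adjusted p = 0.129) and 1.01 ± 0.232 in p52ki (adjusted p = 0.177). The median over the 10 genes was -0.47 in WT and -0.38 in p52ki, beside 0.00153 and 0.00287 over all tested genes. The sum of plasma cell markers moved with this comparison, from 413 to 487 CPM in WT naive to 2066 to 8425 CPM in WT activated libraries over 9 markers, with 8 and 9 of them detected. Jchain had the largest counts of this list in WT activated libraries, 14087 to 60236, against 82 to 208 in WT naive ones. Counts of Derl3, Mzb1, Tnfrsf17 and Slamf7 were also higher in every WT activated library. Those of Xbp1, Prdm1, Sdc1 and Irf4 overlapped between these stages. Marker sums of marginal zone and B-1 cells were 294 to 326 CPM in WT naive and 752 to 1059 CPM in WT activated cells, with all 9 detected. The p52ki sums went from 392 to 436 CPM in naive to 1777 to 3432 CPM in activated libraries for the plasma cell markers and were 337 to 365 and 712 to 808 CPM for the marginal zone and B-1 markers. The part of these cell types in these differences was not tested.

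In WT, entry into the GC compartment brought falls in most of the genes. From activated to GC cells 7 of 10 fell and none rose, where 13.6% of all tested genes were called, 7.75% lower and 5.80% higher. The deepest falls were in Cd38, from 1063 ± 30.7 to 81.2 ± 18.8 CPM (13.1-fold, log2 -3.71 ± 0.468, adjusted p = 0.000136), and in Cd55, from 670.2 ± 84.3 to 108 ± 63.4 CPM (6.21-fold, log2 -2.63 ± 0.315, adjusted p = 8.98e-05). Because low CD38 is often used to sort GC cells and the gate is not given, a Cd38 fall set by the sort cannot be told apart. This limit holds for Cd38 in every comparison of GC with other cells and for the counts that include it. Bank1 fell by 1.63 on the log2 scale, Cd69 by 1.32, Cd37 by 0.97, Btla by 0.85 and Fcrl1 by 0.76, with adjusted p of 0.000554, 0.0385, 0.000817, 0.00679 and 0.00477. Fcer2a, Hvcn1 and Cd24a did not pass, with log2 differences of -0.22, 0.05 and -0.20 and SEs of 0.204, 0.205 and 0.230, and the sign for Hvcn1 turned under another scaling. The Cd69 call was lost without WT GC replicate 1 or 3 or WT activated replicate 3 or 4 (adjusted p of 0.124, 0.0763, 0.0687 and 0.168). With only these 2 groups in the fit, Btla, Fcrl1, Cd37 and Cd69 were no longer called and 3 remained. The marginal zone and B-1 markers moved with this comparison, from sums of 752 to 1059 CPM in WT activated to 119.9 to 172 CPM in WT GC libraries, with 9 and 6 to 9 detected. Summed myeloid markers (13 genes) went from 82.2 to 175 CPM with 9 to 13 detected to 30.7 to 40.4 CPM with 4 to 11 detected, and the part of these cells in the falls was not tested.

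Against naive cells, 9 of the 10 genes were lower in WT GC cells and Cd24a was higher, where 15.9% of all tested genes were called, 7.47% lower and 8.45% higher. Cd55 fell to 8.16% of its naive mean (log2 -3.62 ± 0.328, adjusted p = 6.14e-06) and Cd38 to 9.42% (log2 -3.41 ± 0.461, adjusted p = 0.000137). Bank1 fell to 24.3%, Cd69 to 27.8%, Fcer2a to 29.98%, Btla to 36.1%, Fcrl1 to 45.5%, Hvcn1 to 51.6% and Cd37 to 53.3% of the naive mean. Their log2 differences were -2.04, -1.85, -1.74, -1.47, -1.14, -0.95 and -0.91, with adjusted p from 5.1e-05 to 0.00555. Cd24a rose to 167% (log2 0.74 ± 0.231, adjusted p = 0.0405), and this call was lost without WT naive replicate 1, 3 or 4 or WT GC replicate 1 or 4 (adjusted p of 0.0686, 0.147, 0.0866, 0.0644 and 0.161). The median over the 10 genes was -1.60, beside -0.16 over all tested genes. Both WT comparisons use the same GC libraries. Plasma cell markers summed to 413 to 487 CPM in WT naive and 3001 to 6126 CPM in WT GC libraries and those of marginal zone and B-1 cells to 294 to 326 and 119.9 to 172 CPM, and their part was not tested. In the plasma cell list Jchain had 82 to 208 counts in WT naive and 17461 to 39993 in WT GC libraries. Counts of Xbp1, Prdm1, Derl3, Mzb1 and Slamf7 were also higher in WT GC libraries and those of Tnfrsf17 overlapped. Irf4 (489 to 639 and 82 to 220) and Sdc1 (97 to 115 and 3 to 64) were lower there.

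In p52ki cells, the falls of Cd55, Cd38, Bank1 and Cd69 were also called, whereas Fcrl1, Cd37 and Btla were not. A call in 1 genotype alone is not a difference between genotypes. That difference was tested for the change from naive to GC cells, as given below, and not for the change from activated to GC cells. From activated to GC cells Cd38 fell by 2.47 on the log2 scale, Cd55 by 1.74, Cd69 by 1.34 and Bank1 by 1.09, with adjusted p of 0.00445, 0.00373, 0.044 and 0.0126. Fcer2a rose by 0.66 ± 0.225 (adjusted p = 0.0423), from 444 ± 22.1 to 703 ± 96.5 CPM. Thus 4 genes were lower and 1 was higher, where 25.6% of all tested genes were called, 19.3% lower and 6.34% higher. The Fcer2a call was lost without activated replicate 2 or 5 or GC replicate 2 or 5 (adjusted p of 0.0879, 0.0927, 0.0538 and 0.177), that for Cd69 without activated replicate 2 or 3 or GC replicate 2 or 5 (adjusted p of 0.0711 to 0.189), and that for Bank1 without GC replicate 2 (adjusted p = 0.0556). Against naive cells 6 genes were lower and none was higher, where 29.1% of all tested genes were called, 20.4% lower and 8.68% higher. These were Cd55 (16.7% of the naive mean, log2 -2.58), Cd38 (19.97%, log2 -2.32), Cd69 (31.4%, log2 -1.67), Bank1 (34.9%, log2 -1.52), Hvcn1 (41.7%, log2 -1.26) and Fcer2a (55.05%, log2 -0.86), with adjusted p from 0.000258 to 0.016. Btla stood at 66.8% of its naive mean (adjusted p = 0.0501), Fcrl1 at 83.7%, Cd37 at 109.6% and Cd24a at 132%. The call for Fcer2a was lost without GC replicate 2 (adjusted p = 0.0799) and that for Cd69 without GC replicate 5 (adjusted p = 0.0749). Both p52ki GC libraries are sparse, and once detected genes per library entered the model only Cd55 was still called against activated cells, while Bank1 stood at -0.15 (adjusted p = 0.728) and Cd38 at -1.79 (adjusted p = 0.058). Against naive cells Cd38, Bank1 and Cd69 lost the call in that model (adjusted p of 0.0617, 0.0829 and 0.132), with Bank1 at -0.63. With only the groups compared in the fit, Cd38 was not called in either comparison (adjusted p of 0.111 and 0.103), nor were Fcer2a and Cd69 against activated cells. With library quality weights in limma voom the calls left were Cd55 and Cd38 against activated cells, and these with Bank1 against naive cells. Summed marginal zone and B-1 markers were 712 to 808 CPM in p52ki activated and 173 to 316 CPM in p52ki GC libraries, and their part was not tested.

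**Figure D2:**
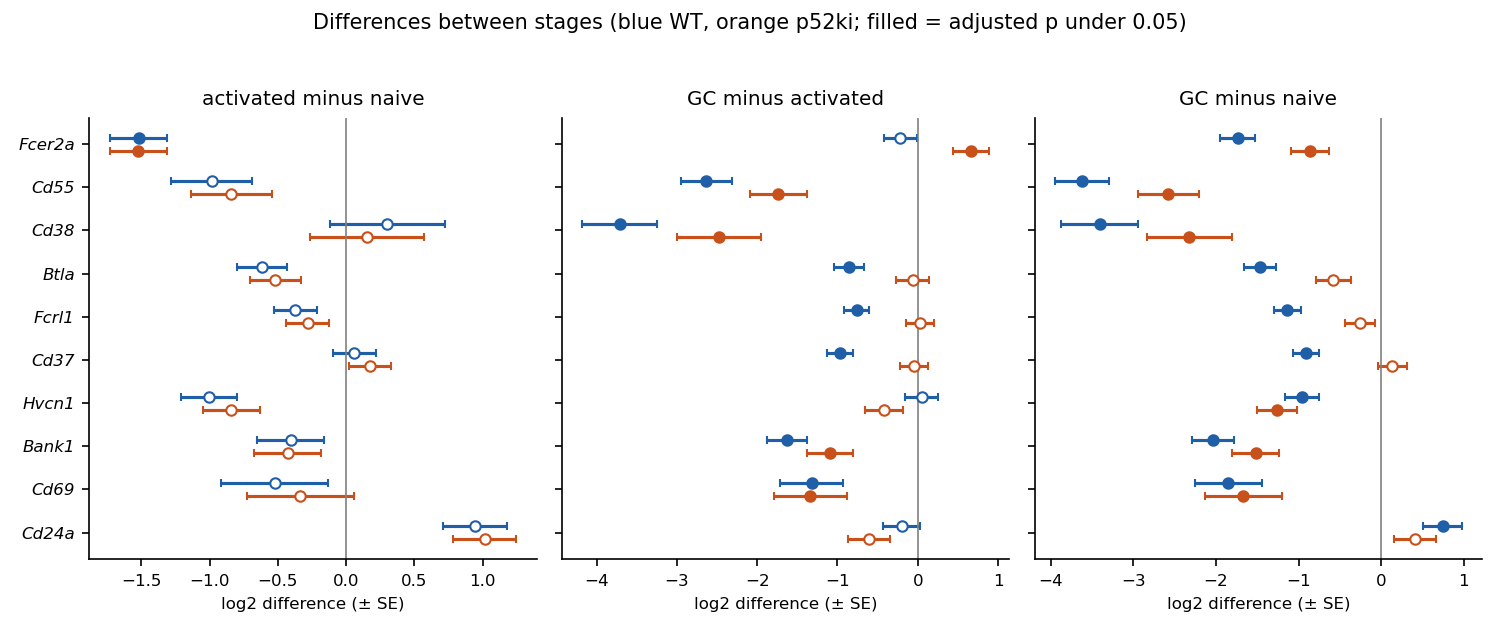
Log2 differences between stages for each gene, WT in blue and p52ki in orange, with SE bars; filled points have an adjusted p under 0.05 over all tested genes, and the 3 panels have axes of their own. Fcer2a is the only filled gene from naive to activated cells, and Btla, Fcrl1 and Cd37 are filled in WT but not in p52ki for both GC comparisons.

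Before the GC stage, no difference between the genotypes was detected in any of the 10 genes. In naive cells the log2 differences of p52ki from WT ran from -0.16 ± 0.295 for Cd55 to 0.26 ± 0.391 for Cd69. With edgeR's quasi-likelihood test 0 of the 10 genes and 0% of all tested genes were called, 0 of the 10 and 80 of all genes had an unadjusted p under 0.05, and DESeq2 called 0 of the 10. All groups share an estimate of the spread, the sparse GC libraries included. Of 15352 tested genes, 80 is fewer than that threshold gives without any difference, so the test is strict here and may miss differences. With only the naive groups in the fit, 0 of the 10 and 13 of all genes were called. None of the 10 separated the genotypes in naive cells, against 5.21% of all genes higher and 5.48% lower in every p52ki library. In activated cells the differences ran from -0.27 ± 0.419 for Cd38 to 0.45 ± 0.392 for Cd69. Again 0 of the 10 were called, against 0.0130% of all genes, 0.00651% in each direction. At an unadjusted p under 0.05 these were 0 of the 10 and 134 of all genes, and DESeq2 called 0 of the 10. The same limit holds, and with only the activated groups in the fit 0 of the 10 and 3 of all genes were called. Cd24a was higher in every p52ki activated library than in every WT one, as were 3.15% of all genes, and no member was lower throughout, against 2.95% of all genes. For the change from naive to activated cells, the genotypes differed in 0 of the 10 genes and in 0% of all tested genes, with 0 and 65 at an unadjusted p under 0.05.

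In GC cells, 4 of the 10 genes were higher in p52ki than in WT and none was lower. Of all tested genes 16.0% were called, 3.75% higher and 12.2% lower. Cd37 was at 1240 ± 69.3 CPM (SD, n = 2) in p52ki and 603 ± 26.0 CPM (SD, n = 3) in WT GC cells, 2.05-fold higher (log2 1.04 ± 0.173, adjusted p = 0.00142). Fcrl1 was at 287 ± 38.7 and 159 ± 10.3 CPM, also higher (log2 0.85 ± 0.175, adjusted p = 0.00591). Fcer2a was at 703 ± 96.5 and 367 ± 61.7 CPM, 1.92-fold higher (log2 0.94 ± 0.225, adjusted p = 0.0134). Btla was at 334 ± 10.2 and 184 ± 37.5 CPM, 1.81-fold higher (log2 0.85 ± 0.206, adjusted p = 0.0138). These receptors and the tetraspanin did not overlap between the genotypes, and neither did Bank1, so that 5 of 10 were higher in every p52ki library, against 9.45% of all genes higher and 15.4% lower. The median over the 10 genes was 0.85, beside -0.32 over all tested genes. The tested genes include genes of low count, both p52ki GC libraries are sparse and the 10 genes are well expressed, so these medians are not of like genes. Over the lists of 30 surface genes and 28 partners used below, the medians were 0.57 and 0.26.

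The other 6 genes did not pass in GC cells. Cd38 had a log2 difference of 0.96 ± 0.466 (adjusted p = 0.165), which was 1.73 without p52ki GC replicate 2 (adjusted p = 0.00172) and -0.86 without p52ki GC replicate 5 (adjusted p = 0.0788). Cd55 had 0.88 ± 0.328 (adjusted p = 0.0789) and passed without the sparse WT GC replicate 3 (1.57, adjusted p = 0.000289). Bank1 had 0.54 ± 0.271 (adjusted p = 0.178), which was 1.16 and called once detected genes per library entered the model (adjusted p = 0.00167), and Cd69 had 0.43 ± 0.435. Hvcn1 had -0.11 ± 0.230 and Cd24a -0.08 ± 0.258, and both signs turned with the number of detected genes in the model. No gene of the 4 called was lost when any of the 5 GC libraries was left out, with adjusted p up to 0.0492 for Fcer2a.

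The GC libraries differed between genotypes in more than these genes, and 2 ways of fitting the data ended the calls. Against the sparse WT GC replicate 3 alone, the log2 difference was 1.10 for Cd37 (adjusted p = 0.00614), 1.21 for Btla (adjusted p = 0.00342), 0.76 for Fcrl1 (adjusted p = 0.0371) and 0.77 for Fcer2a (adjusted p = 0.0849), while Cd55 stood at 0.15. Bank1 was called against that library, at 1.32 (adjusted p = 0.00375), so 4 genes were called with Bank1 in place of Fcer2a. With only the GC libraries in the fit, 0 of the 10 genes and 0 of all genes were called, with values of 1.12 for Cd37, 0.93 for Fcrl1, 1.01 for Fcer2a and 0.95 for Btla and adjusted p of 0.579 to 0.599. With library quality weights in limma voom 0 of the 10 and 15 of all genes were called, with adjusted p of 0.184 to 0.425 for the 4 genes. DESeq2 called the same 4. The sum of all 10 GC markers was lower in every p52ki GC library (1482 to 2321 CPM) than in every WT GC library (2534 to 4069 CPM), all 10 were detected in each, and its part in these differences was not tested. Summed markers of marginal zone and B-1 cells (9 genes) were 173 to 316 CPM in p52ki GC and 119.9 to 172 CPM in WT GC libraries, with 7 to 9 and 6 to 9 detected, and their part was not tested either. In unscaled counts Cd9 (340 to 413 in p52ki GC, 5 to 137 in WT GC libraries) and Bhlhe41 (112 to 145 and 18 to 43) were higher in p52ki. S1pr3 was lower in p52ki (110 to 198 and 224 to 405), and the other markers of this list overlapped. Of the 12 T cell markers 9 were at 0 in both p52ki GC libraries, Cd3g, Trac and Cd4 among them. Those with counts there were Cd3d (5 to 47 in p52ki GC, 0 to 3 in WT GC libraries), Cd3e (0 to 110 and 0 to 7) and Trbc2 (0 to 45 and 4 to 17). Trac had 13 to 47 counts in WT GC libraries. The list summed to 48.9 CPM in p52ki GC replicate 2, to 0.820 CPM in replicate 5 and to 7.44 to 13.0 CPM in WT GC libraries, and the part of these cells was not tested. The 13 myeloid markers summed to 66.1 to 131 CPM in p52ki GC and 30.7 to 40.4 CPM in WT GC libraries, with 3 to 4 and 4 to 11 detected, and Lyz2, Csf1r, Cd14 and Itgam were at 0 in both p52ki GC libraries. The 9 erythroid and platelet markers summed to 254 to 332 and 47.1 to 200.1 CPM, with 3 and 2 to 7 detected, and Alas2 and Pf4 were at 0 in both p52ki GC libraries. Plasma cell markers summed to 2897 to 2999 and 3001 to 6126 CPM, with 7 to 8 and 8 to 9 of 9 detected and Prdm1 at 0 in both p52ki GC libraries. Jchain had the largest unscaled counts of the plasma cell list in both genotypes, 10060 to 14174 in p52ki GC and 17461 to 39993 in WT GC libraries. Library totals were 4067281 and 6625399 in p52ki GC and 4926763 to 9936589 in WT GC, so these ranges do not show a difference in level. In unscaled counts Xbp1 was lower in p52ki GC (1039 to 1926 against 2917 to 5438), as was Prdm1. Tnfrsf17 was higher there (42 to 108 against 0 to 23), and the remaining plasma cell markers overlapped. The myeloid sums and the erythroid and platelet sums did not overlap between the genotypes. The plasma cell sums almost met, at 2999 CPM in p52ki GC replicate 5 and 3001 CPM in WT GC replicate 1. Among myeloid markers, unscaled counts of Ly6c2 (155 to 433 in p52ki GC, 24 to 109 in WT GC) and C1qb (65 to 187 and 15 to 61) were higher in p52ki. Lyz2 was lower (0 and 2 to 53), and the other myeloid markers overlapped. The part of all these cells was not tested.

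**Figure D3:**
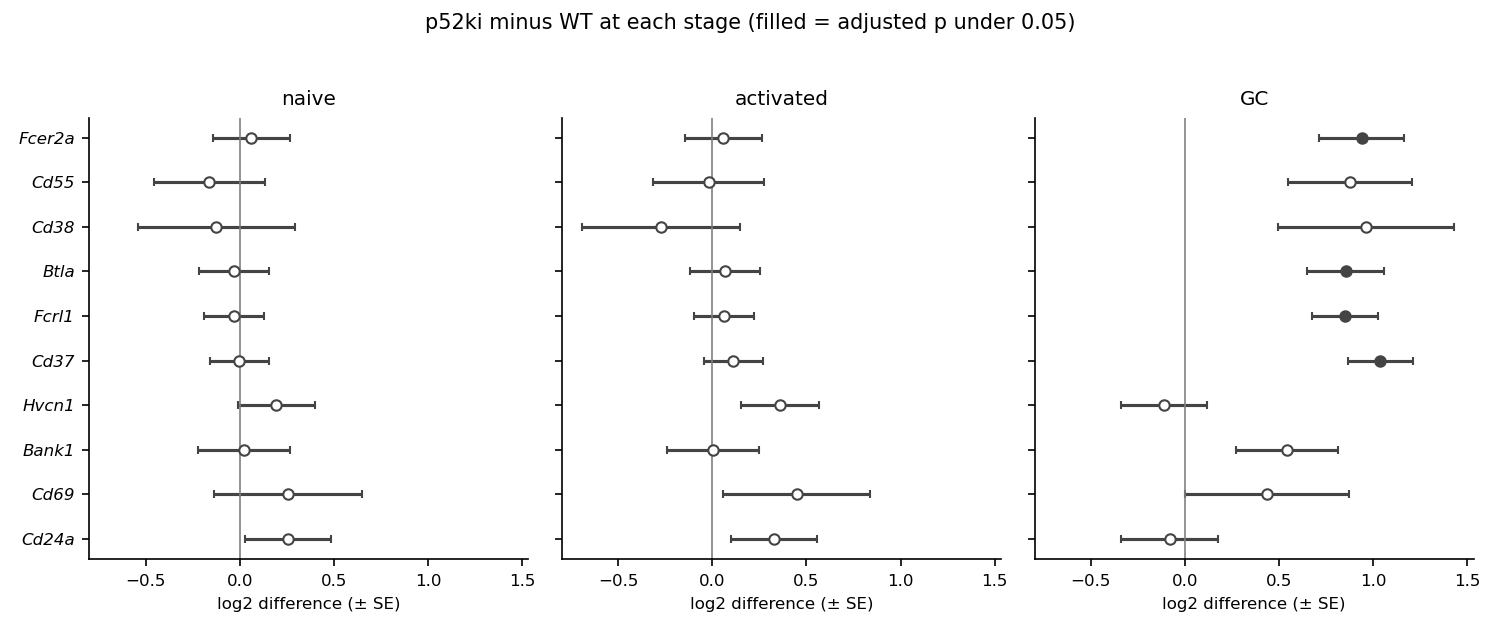
Log2 difference of p52ki from WT for each gene at each stage, with SE bars on a shared axis; filled points have an adjusted p under 0.05 over all tested genes. No point is filled in naive or activated cells, and Fcer2a, Btla, Fcrl1 and Cd37 are filled in GC cells, between 0.85 and 1.04.

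By edgeR's test, the change from naive to GC cells differed between the genotypes in Cd37 and Fcrl1, though other settings given below lost these calls. The p52ki change minus the WT change was 1.04 ± 0.234 on the log2 scale for Cd37 (adjusted p = 0.0194) and 0.88 ± 0.236 for Fcrl1 (adjusted p = 0.0427), so 2 of 10 genes were called, where 5.76% of all tested genes were called, 0.840% higher and 4.92% lower. Btla had a difference of 0.89 ± 0.278 (adjusted p = 0.0719), Fcer2a 0.88 ± 0.304 (adjusted p = 0.099) and Cd55 1.04 ± 0.443 (adjusted p = 0.173), and none of these passed. The comparison reuses the GC libraries of the comparison between genotypes above, so the values are not independent of it. The Cd37 call was lost without WT naive replicate 1 or 3 or p52ki naive replicate 2 or 5 (adjusted p of 0.0592, 0.0539, 0.0535 and 0.0563). The Fcrl1 call was lost without any of 9 of the 11 libraries (all but WT GC replicate 3 and p52ki GC replicate 2), with adjusted p of 0.0585 to 0.104. Without WT GC replicate 3, 5 of the 10 genes were called. Library quality weights in limma voom ended both calls (adjusted p of 0.223 for Cd37 and 0.268 for Fcrl1), and so did the replicate block in edgeR's fit. Over 21 other settings the Fcrl1 call was lost in 14, with WT GC replicate 3 as the only WT GC library among them. The Cd37 call was lost in 6 of these 21. The values ran from 0.72 to 1.06 for Fcrl1 and from 0.97 to 1.14 for Cd37.

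**Figure D4:**
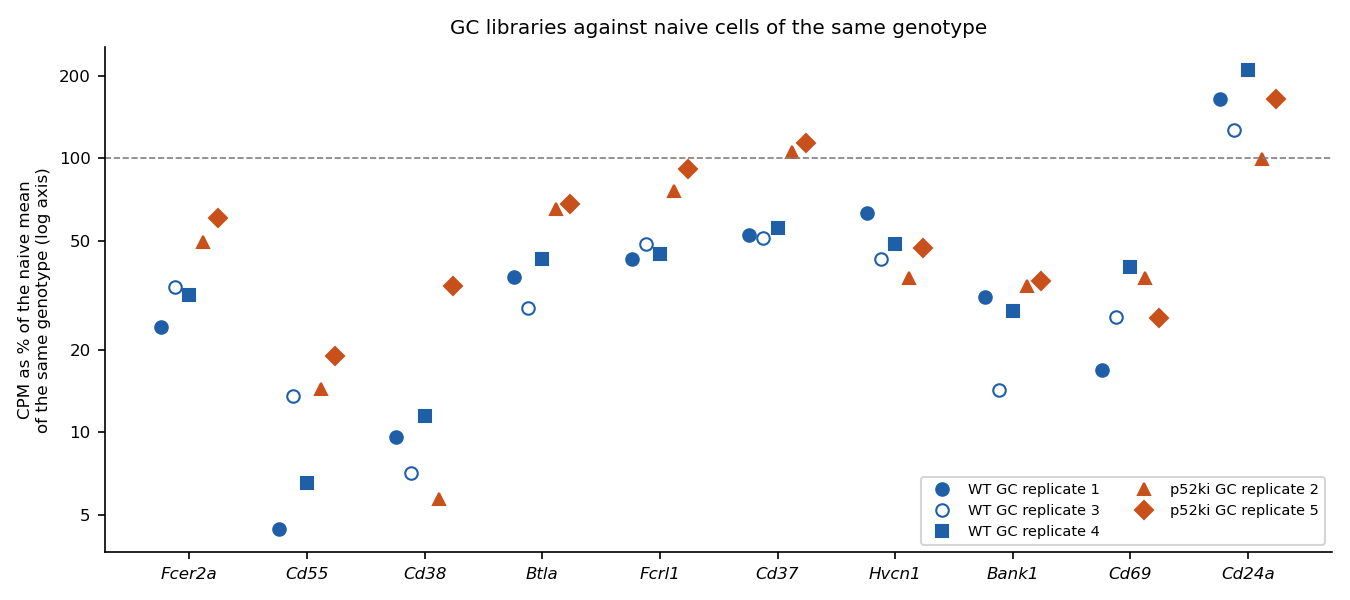
CPM of each GC library as a percent of the naive mean of its genotype (log axis), WT in blue and p52ki in orange, with the sparse WT GC replicate 3 as an open circle. Cd37 lies at 51.4% to 55.8% in WT and 105% to 114% in p52ki, while for Cd38 p52ki GC replicate 2 is at 5.72% and replicate 5 at 34.2%.

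Since p52 binds kB sites and the series names ETS1 beside it, the promoters of the 4 genes that were higher in p52ki GC cells are shown as the 250 bases before the transcript start (RefSeq, GRCm38.p6), read 5′ to 3′ on the gene's strand. Capitals mark matches on either strand to the kB-type pattern GGGNNNNNCC or to the ETS-type patterns AGGAAG and CGGAAG. Fcer2a is at chr8:3694175-3694424 (minus, the first of 3 starts), Btla at chr16:45224087-45224336 (plus), Fcrl1 at chr3:87376137-87376386 (plus) and Cd37 at chr7:45238840-45239089 (minus).
Fcer2a: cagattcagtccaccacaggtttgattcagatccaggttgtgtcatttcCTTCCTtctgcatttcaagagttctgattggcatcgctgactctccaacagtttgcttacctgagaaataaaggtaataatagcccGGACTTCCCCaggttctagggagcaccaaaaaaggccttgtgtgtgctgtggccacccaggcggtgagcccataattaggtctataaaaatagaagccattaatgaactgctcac
Btla: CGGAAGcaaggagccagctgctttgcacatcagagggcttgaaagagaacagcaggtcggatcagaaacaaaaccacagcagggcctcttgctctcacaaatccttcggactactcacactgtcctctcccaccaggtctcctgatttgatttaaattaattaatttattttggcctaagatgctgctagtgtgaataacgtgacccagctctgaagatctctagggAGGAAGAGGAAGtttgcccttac
Fcrl1: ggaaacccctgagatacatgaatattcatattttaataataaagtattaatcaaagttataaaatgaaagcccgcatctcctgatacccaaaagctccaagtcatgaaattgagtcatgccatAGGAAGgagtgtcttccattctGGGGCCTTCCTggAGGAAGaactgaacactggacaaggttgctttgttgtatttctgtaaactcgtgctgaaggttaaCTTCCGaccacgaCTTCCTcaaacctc
Cd37: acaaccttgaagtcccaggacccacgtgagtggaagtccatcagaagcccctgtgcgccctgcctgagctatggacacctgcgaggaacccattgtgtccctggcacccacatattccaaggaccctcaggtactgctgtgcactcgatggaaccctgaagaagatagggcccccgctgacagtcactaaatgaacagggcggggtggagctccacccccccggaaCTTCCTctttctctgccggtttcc
Fcer2a holds a match to the kB-type pattern, and Fcrl1 holds a kB-type match that overlaps an AGGAAG on the other strand. Btla and Cd37 hold no kB-type match in this window. The starts are those of RefSeq. By the gene spans given above, the Cd37 window lies wholly within the gene (chr7:45233632-45239115). The Btla window ends past the first base of its gene span, at chr16:45224315. All 4 hold at least 1 ETS-type match: 1 in Fcer2a, 3 in Btla, 5 in Fcrl1 and 1 in Cd37. The table held promoters of 7 of the 10 genes. Of these 7, 4 had a kB-type match (Fcer2a, Cd55, Fcrl1 and Bank1), and 45.8% of 32851 windows of 250 bases had one. An ETS-type match was found in 6 of 7, all but Cd55, against 39.2% of the windows, of which AGGAAG was in 29.5% and CGGAAG in 13.6%. A match describes letters and is not a binding site.

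Other genes of the B cell surface were looked up in a list of 30. In WT, activation raised Ighm, the IgM heavy chain (log2 1.34, adjusted p = 0.00542), and lowered Ighd, the IgD heavy chain (-1.90, adjusted p = 0.00591), and Ccr6, a chemokine receptor (-1.79, adjusted p = 0.0185), and in p52ki Ighd was the only gene of the list called (-1.70, adjusted p = 0.0251). None of the 30 rose from activated to GC cells, against 5.80% of all tested genes in WT and 6.34% in p52ki. Those that fell were 19 in WT, against 7.75% of all genes, and 11 in p52ki, against 19.3%. Among those with the smallest p in WT were Ccr7, the receptor for lymph node chemokines (-4.62), Ighd (-3.60) and S1pr1 (-4.33), and in p52ki Ighd (-2.40), S1pr1 (-3.34) and Fcmr, the IgM Fc receptor (-1.07). Against naive cells 17 fell in WT GC cells and 13 in p52ki GC cells, beside 7.47% and 20.4% of all genes. None rose in WT and Cd180 alone rose in p52ki, beside 8.45% and 8.68% of all genes. Between the genotypes in GC cells, where 3.75% of all genes were higher and 12.2% lower, 10 of the 30 were higher in p52ki and none lower. They included Ccr7 (131.8 ± 62.3 against 13.8 ± 6.07 CPM, log2 3.25, adjusted p = 0.000105), Ly6d (2.102, adjusted p = 0.00905), Ighd (1.37, adjusted p = 0.00915) and Cr2, which encodes the complement receptors CD21 and CD35 (1.44, adjusted p = 0.00974). The median of the list was 0.57, beside -0.32 over all tested genes. Before the GC stage 0 of the 30 were called between genotypes, beside 0% of all genes in naive and 0.0130% in activated cells.

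The known partners of the 10 genes formed a list of 28, which shares S1pr1 and Siglecg with the list of surface genes. None was called on activation in either genotype, beside 0.319% of all genes in WT and 0.117% in p52ki. From activated to GC cells 10 fell and Cd59a, another complement regulator, rose in WT, and 11 fell and Cd59a rose in p52ki. Of all genes 7.75% were lower and 5.80% higher in WT, and 19.3% and 6.34% in p52ki. The median of the 28 was -0.61 in WT and -0.54 in p52ki, beside -0.13 and -0.41 over all tested genes. Adgre5, which encodes the CD55 ligand CD97, fell together with Cd55: its WT mean was 287 CPM in activated and 42.3 CPM in GC cells (log2 -2.76, adjusted p = 2.39e-05), and its p52ki mean 313 and 63.8 CPM (log2 -2.29, adjusted p = 0.000211). S1pr1, the receptor that CD69 opposes, fell by 4.33 in WT and by 3.34 in p52ki on the log2 scale. Against naive cells 8 fell and 2 rose in WT, where 7.47% of all genes were lower and 8.45% higher. In p52ki 10 fell and 2 rose, where 20.4% of all genes were lower and 8.68% higher. Between the genotypes in GC cells, where 3.75% of all genes were higher and 12.2% lower, 3 partners were higher in p52ki. These were Cd9, a tetraspanin (75.1 ± 10.3 against 8.81 ± 7.09 CPM, log2 3.06, adjusted p = 0.00355), Ncf4, an NADPH oxidase subunit (230.1 ± 6.21 against 116 ± 19.8 CPM, log2 0.98, adjusted p = 0.00591), and Bst1, a relative of Cd38 (1.94 and 9.51 CPM in the p52ki libraries, at most 0.256 CPM in the WT ones). Tspan33 was called lower, with 0 counts in both p52ki GC libraries and a mean of 13.6 CPM in WT GC libraries, and no fold is given for it.

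Across the 17 libraries, the 10 genes differed in which other genes they resembled most, by Pearson's r of log2 CPM over 9002 genes. These values describe shared group means as much as anything within groups, and carry no test. Cd55 was most like genes that included Gimap6 (0.987) and Ighd (0.983), and Bank1 most like Anxa6 (0.988), Scml4 (0.983) and Ier5 (0.982). Cd37 was most like Rnase6 (0.982), Ly86 (0.943) and Igkv3-5 (0.942), Fcrl1 most like Ms4a4c (0.951), Ctss (0.946) and Gpr18 (0.946), and Btla most like Ddrgk1 (0.967), Pecam1 (0.926) and Nfkb2 (0.924). Fcer2a was most like Lmo2 (0.969), Pxdc1 (0.89) and H2-DMb1 (0.877), and Cd38 most like Trim30b (0.961), Cyb561a3 (0.96) and Gm2a (0.96). Cd69 stood beside the early response genes Junb (0.966) and Zfp36 (0.96) and beside Gm11175 (0.937). Hvcn1 stood beside its overlapping neighbour Tctn1 (0.994), Neurl3 (0.943) and Dusp7 (0.916), and Cd24a beside Arl5c (0.857), Dusp10 (0.824) and Rgs10 (0.823). Among the 10 genes themselves, Btla and Bank1 were the closest pair (0.91) and Fcer2a and Cd24a the most opposed (-0.68).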

How the data were processed

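RNA of sorted spleen B cells was amplified by a SMART-Seq protocol without molecular identifiers named in the labels. The deposited values are unnormalized read counts for each gene. The submitters' processing notes name GRCm38, HISAT2 2.1.0, Subread 1.6.2 with featureCounts, and SAMtools 1.8 as what the authors used. The sources used here do not give the strand setting, the multi-mapping rule or the annotation release; all 55536 gene IDs matched GENCODE mouse annotation. From the counts, edgeR's filterByExpr left 15352 genes, which were scaled by TMM and tested in edgeR 4.0.16 (R 4.3.3) with robust quasi-likelihood fits, 1 coefficient per group over 17 libraries, without a replicate block. All groups share an estimate of the spread in this fit. P-values were adjusted by Benjamini-Hochberg over all tested genes in each of the comparisons and called under 0.05. CPM are TMM-scaled. DESeq2 1.42.0, limma 3.58.1 (voom) and other settings served as alternatives. The scripts were tested on simulated data. All 10 genes were named; from the lists, up to 4 called genes of smallest p per comparison, and for likeness the 3 genes of highest r with a mean of at least 10 CPM. A gene that this rule names is not reported here. Members and lists were chosen with earlier results of these data known.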

Additional observations from a re-analysis of the deposited data

Results flagged for a closer look

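The change from naive to GC cells differed between p52ki and WT in 2 of the 10 genes and in genes of the lists of surface genes and partners, by edgeR's test of the difference itself. The p52ki change minus the WT change was 1.04 on the log2 scale for Cd37 (adjusted p = 0.0194) and 0.88 for Fcrl1 (adjusted p = 0.0427). Both calls were lost with library quality weights in limma voom (adjusted p of 0.223 and 0.268) and with the replicate block in edgeR's fit. They were also lost without WT naive replicate 1 or 3 or p52ki naive replicate 2 or 5 (adjusted p of 0.0535 to 0.104). Among the surface genes it was 3.43 for Ccr7 (adjusted p = 0.000949), which stood at 536 and 13.8 CPM in WT naive and GC cells and at 473 and 131.8 CPM in p52ki. Among the partners it was 3.18 for Cd9 (adjusted p = 0.028), 1.05 for Ncf4 (adjusted p = 0.0388) and 5.57 for Bst1 (adjusted p = 0.0211). Cd9 stood at 24.4 to 34.9 CPM in WT naive and at a mean of 8.81 CPM in WT GC cells, and at means of 26.7 and 75.1 CPM in p52ki. Bst1 was at or under 0.256 CPM in every WT GC library, so its fitted value depends on the prior count and is no bound.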

How the results depend on the processing

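Of 172 recomputed counts of called members, 126 stayed within 1.5 times the reported count and 46 moved. Values of single genes were followed except for the difference of the activation change. Between genotypes in naive and in activated cells, only the members with the lowest and highest difference were followed. Of the values followed, 1104 stayed on their side of the threshold, 55 gained and 88 lost the call and 39 changed sign. The lowest count of a member was 187. WT activated against naive cells (1 called) gave 2 with RLE scaling, 4 without the filter, 4 with DESeq2, 6 with voom quality weights, 4 with only the groups compared, 3 with the replicate as a random effect and 4 with detected genes per library as a covariate. WT GC against activated (7) gave 3 with only those groups. In p52ki, activated against naive (1) gave 2 without the filter, 3 with DESeq2, 6 with voom, 0 without immunoglobulin genes and 4 with only the groups, GC against activated (5) gave 3 without the filter, 2 with voom, 2 with only the groups and 1 with the covariate, and GC against naive (6) gave 3 with voom and 3 with the covariate. The GC difference between genotypes (4) gave 0 with voom and 0 with only the groups, and that of the GC change (2) gave 1 without the filter, 4 with DESeq2, 0 with voom, 1 with only the groups and 4 with the covariate. With RLE scaling, the all-gene median moved from -0.16 to -0.26 in WT GC against naive cells. The causes were not tested. Leaving out each library gave 0 to 2, 6 to 7 and 9 to 10 called for the WT comparisons in the order of the text, 0 to 1, 2 to 4 and 5 to 6 for those in p52ki, 4 to 5 between GC genotypes, 0 to 5 for the GC change and 0 for the others.

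Hvcn1 was at -0.0404 with RLE scaling and -0.0405 with DESeq2 in WT GC against activated cells, and Cd37 at -0.00416 in WT activated against naive cells with voom. In p52ki GC against activated cells Fcrl1 was at -0.0142 without the filter and -0.10 with the covariate, Cd37 at 0.0291 with voom and 0.0693 without immunoglobulin genes, and Btla at 0.0506 without immunoglobulin genes and 0.45 with the covariate. Between GC genotypes Cd24a was at 0.0027 without immunoglobulin genes, 0.0128 with only the groups, 0.23 with the covariate and 0.32 against WT GC replicate 3 alone, and Hvcn1 at 0.13 with the covariate and 0.17 against that library. Against it, a choice made after seeing the data, the GC change of Cd24a differed by 0.0656. These signs and the ranges that follow cover only the values of single genes followed above. With 1 library left out at a time, ranges crossed 0 for Cd37 (-0.0646 to 0.15) in WT activated against naive cells, for Fcer2a (-0.41 to 0.0473) and Hvcn1 (-0.12 to 0.24) in WT GC against activated cells, for Cd38 (-0.0559 to 0.38) in p52ki activated against naive cells, and for Btla (-0.13 to 0.15), Cd37 (-0.12 to 0.16) and Fcrl1 (-0.14 to 0.15) in p52ki GC against activated cells. They also did for Cd24a (-0.0247 to 0.71) in p52ki GC against naive cells, for Hvcn1 (-0.32 to 0.063), Cd24a (-0.51 to 0.23) and Cd38 (-0.86 to 1.73) between GC genotypes, and for Cd38 (-0.73 to 1.85) and Cd69 (-0.11 to 0.54) in the difference of the GC change.

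The labels do not say what a shared replicate number stands for, and the numbers were not taken as a pairing because 4 of 16 pairs of libraries with the same number correlated above 0.1 (median r 0.0451), and 3 of 32 with other numbers (median r -0.0184). Between naive and activated libraries all 6 same-number pairs were positive (r of 0.0786 to 0.281), 4 of 6 were above 0.1 against 1 of 12 with other numbers, and 10 of 12 libraries correlated best with their own number, a hint from the data of a pairing at these stages. The replicate block gave 0 called for p52ki activated against naive cells and 0 for the difference of the GC change, where Cd37 (1.10, adjusted p = 0.0507) and Fcrl1 (0.90, adjusted p = 0.129) lost the call, left the other counts within 1.5 times, and put Cd37 at 0.0246 in p52ki GC against activated cells.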
